A study of Mus musculus with 32 samples.

Results

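The 40 genes described here are the antioxidant, glutathione and NRF2 target genes of mouse liver. They were chosen by name, from a list of gene symbols to which no threshold on measured values was applied, among the 21073 genes tested on these arrays. The list holds 2 regulators, 4 NRF2 targets of quinone and heme handling and conjugation, 5 genes of glutathione synthesis and recycling, 5 of the thioredoxin and peroxiredoxin system, 7 of superoxide and peroxide removal, 13 cytosolic and 2 microsomal glutathione S-transferases and 2 metallothioneins. Of the 40, 38 passed the filter on dim probes. Ggt1 did not, whose probe passed the background limit on 1 array only, and Mt2 lost its only probe to 1 spot that the scanner software marked as an outlier.

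NRF2, the product of Nfe2l2, is a transcription factor that KEAP1 holds in the cytoplasm and marks for degradation. Electrophiles and peroxides modify KEAP1, NRF2 then reaches the nucleus, and it binds antioxidant response elements (ARE) in front of genes for glutathione synthesis, thioredoxin reduction and conjugation. Glutathione is made from cysteine, glutamate and glycine, and in the liver much of the cysteine comes from dietary methionine. Metallothioneins are small cysteine-rich proteins that bind zinc and copper and follow another control, the metal response element (MRE) read by MTF1, together with glucocorticoids and inflammatory signals.

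Livers came from male adult C57/BL6 mice in 8 groups of 4 arrays, each array labelled as a biological replicate. Mice ate standard chow (C) or a diet deficient in methionine and choline (MCD, a dietary model of steatohepatitis) for 3 weeks, and a chow group (C+Fc-GLP-1) and an MCD group (M+Fc-GLP-1) also received Fc-GLP-1, an agonist of the receptor for GLP-1, for the last 2 weeks. The study's methods describe repeated subcutaneous injection of Fc-GLP-1, with saline for the C and MCD groups, and that name is used here, although some label fields name an agonist of both GLP1R and GCGR, dosed at 4.4 mg/kg/day. The same 4 groups were sampled before partial hepatectomy (PH) and 2 weeks after removal of 70% of the liver, with diet and drug continued. The study describes the tissue before PH as liver removed in that surgery. No label says whether arrays before and after PH share mice, and they were tested as separate samples. Livers after PH came from mice that survived, and the study reports higher survival with Fc-GLP-1 on either diet. Each group lay on 1 slide, and only MCD with C before PH and the treated pairs at each time shared a slide, with chow arrays on row 1 and MCD arrays on row 2, so that slide row and diet cannot be told apart. In all other pairs of groups compared, slide and group cannot be told apart, and the untreated livers after PH were also read on the second scanner.

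A level below is the log2 intensity of the brightest probe of a gene that passed the filter, minus the 75th percentile of that array, so 0 is that percentile. The raw 75th percentile ran from 209 to 778 intensity units, and on each array 36.3 to 69.2% of probes were above background by the scanner software's test ("well above background" below). Levels of different genes are not set against each other, since probes differ in brightness. The labelled tissue was checked by hepatocyte markers, and Alb, Apoa1, Ttr, Serpina1c, Tat and Hnf4a were above background on all 32 arrays. In whole liver, a change in the number of cells of a type and a change in RNA per cell cannot be told apart.

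The metallothionein promoters are shown because both genes were higher on MCD in all 4 diet comparisons, and 1 Txnrd1 promoter is shown for comparison because it holds an ARE core. All are from RefSeq on GRCm38, 5′ to 3′, from 250 bases before the annotated start to 30 bases after it, with matches to the MRE core (TGCACNC or TGCGCNC) or the ARE core (TGACNNNGC) on either strand in capitals. The Mt1 window is chr8:94178839-94179118, the Mt2 window chr8:94172368-94172647 and the Txnrd1 window chr10:82858956-82859235, all on the plus strand.
Mt1: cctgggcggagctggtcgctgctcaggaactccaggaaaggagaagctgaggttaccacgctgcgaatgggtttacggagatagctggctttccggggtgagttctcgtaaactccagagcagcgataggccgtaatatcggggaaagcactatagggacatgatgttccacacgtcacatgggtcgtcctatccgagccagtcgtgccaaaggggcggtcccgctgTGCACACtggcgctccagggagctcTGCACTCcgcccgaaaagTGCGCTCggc
Mt2: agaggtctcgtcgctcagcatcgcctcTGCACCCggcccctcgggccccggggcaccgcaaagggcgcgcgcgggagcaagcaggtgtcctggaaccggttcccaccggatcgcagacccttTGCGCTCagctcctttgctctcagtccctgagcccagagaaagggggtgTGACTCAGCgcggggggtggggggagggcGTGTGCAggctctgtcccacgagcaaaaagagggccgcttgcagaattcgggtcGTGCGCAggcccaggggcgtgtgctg
Txnrd1: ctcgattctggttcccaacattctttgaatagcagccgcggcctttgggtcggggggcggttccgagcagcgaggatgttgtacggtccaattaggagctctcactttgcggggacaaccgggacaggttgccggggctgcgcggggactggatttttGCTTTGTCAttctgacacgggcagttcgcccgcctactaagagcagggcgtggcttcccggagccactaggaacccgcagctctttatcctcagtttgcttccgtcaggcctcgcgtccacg

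Mt1 held 3 MRE cores, beginning at -23, 3 and 21 relative to the annotated start. Mt2 held 4, at -223, -128, -50 and 5, and 1 ARE core at -79. The Txnrd1 window held 1 ARE core at -92, on the minus strand. Of the 40 genes, 34 had a promoter in the RefSeq table, 48 windows of 300 bases in all. An ARE core lay in 14 of these 48 windows (29.2%) against 12.4% of all 32851 promoters in the table. An MRE core lay in 12 of the 48 (25%) against 25.7% of all promoters. The genes with an ARE core were Gclm, Ggt1, Gsta3, Gstm5, Mgst1, Mt2, Nfe2l2, Prdx1, Sod1, Srxn1, Txnrd1 and Ugdh, and those with an MRE core were Gclm, Gpx7, Gsta2, Gstm1, Gstm4, Gstm5, Gstt1, Mt1, Mt2 and Srxn1. Srxn1 held the site GCTAGGTCA at 29 and Prdx1 the site GCTGAGTCA at -133. A match is a description of letters, not of binding.

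The probes of 3 genes described below are shown because each spans more than its own length in the mm9 coordinates of the array annotation, as a probe across an exon junction does. The Gstp1 probe lies within chr19:4035908-4036723 on the minus strand, the Gss probe within chr2:155389432-155390531 on the minus strand and the Gclm probe within chr3:121962174-121964809 on the plus strand.
Gstp1: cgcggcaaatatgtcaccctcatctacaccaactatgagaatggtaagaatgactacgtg
Gss: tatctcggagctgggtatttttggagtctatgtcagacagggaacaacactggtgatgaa
Gclm: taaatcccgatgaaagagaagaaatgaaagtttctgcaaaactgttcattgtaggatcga

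Before PH and without drug, MCD was compared with C on a shared slide. Mt1, Mt2 and Srxn1 were among the genes that rose and Gstp1 and Cat among those that fell. Of 38 tested genes, 7 rose and 10 fell (44.7% called), where 26.4% of all 21073 genes were called, 10.9% higher and 15.5% lower. The median log2 difference was -0.06 over the 38 and -0.13 over all genes. The split depended on scaling, as did that of all genes. With median centring 10 rose and 4 fell, where 4207 of all 21073 genes were called higher and 1266 lower. With normexp and quantile normalization or the authors' normalized values 10 rose and 8 fell. Of all genes, 2317 were called higher and 2700 lower with normexp, and 2089 and 2377 with the authors' values.

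Before PH with Fc-GLP-1, the diet was compared within the second slide. Here 4 of the 38 rose and 6 fell (26.3%), against 10.4% of all genes, 5.35% higher and 5.01% lower. With median centring 2 rose and 7 fell, where 615 of all genes were called higher and 1899 lower. After PH with Fc-GLP-1, again within 1 slide, 4 rose and 7 fell (28.9%), against 12.8% of all genes, 6.2% higher and 6.62% lower. After PH without drug, across slides, 2 rose and 6 fell (21.1%), against 12.1% of all genes, 6.04% higher and 6.08% lower. With median centring 3 rose and 3 fell in this pair, where 1438 of all genes were called higher and 886 lower. Leaving out 1 array at a time gave 4 to 12 calls in this last comparison.

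Across the 3 comparisons within a slide, Mt1 was called higher each time and Cat, Gstm6, Gstp1 and Gstt1 were called lower each time. Mt1, Cat, Gstm6 and Gstt1 were also called, in the same directions, after PH without drug. Over all genes, 1.35% were called higher and 1.55% lower in all 3 comparisons within a slide. In all 4 diet comparisons, 1.11% of all genes were called higher and 1.11% lower. Nfe2l2 was the 1 gene of the 38 called in opposite directions in different diet comparisons. Keap1, Gsr, Txn1, Sod1, Sod2, Gpx3, Gpx4, Gsta3, Gstm1, Gstm3 and Mgst1 were called in none of the 12 comparisons with the settings used throughout. Other settings called some of them. With normexp and quantile normalization or the authors' normalized values, Gpx4 and Gstm3 were called higher and Gsr lower in MCD than in C before PH. Gstm1 was called lower in that comparison with the mean over probes, and lower in the treated pair before PH with the mean over probes, median centring or centring over probes. Mgst1 was called lower with drug in MCD livers before PH with the authors' values.

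**Figure D1:**
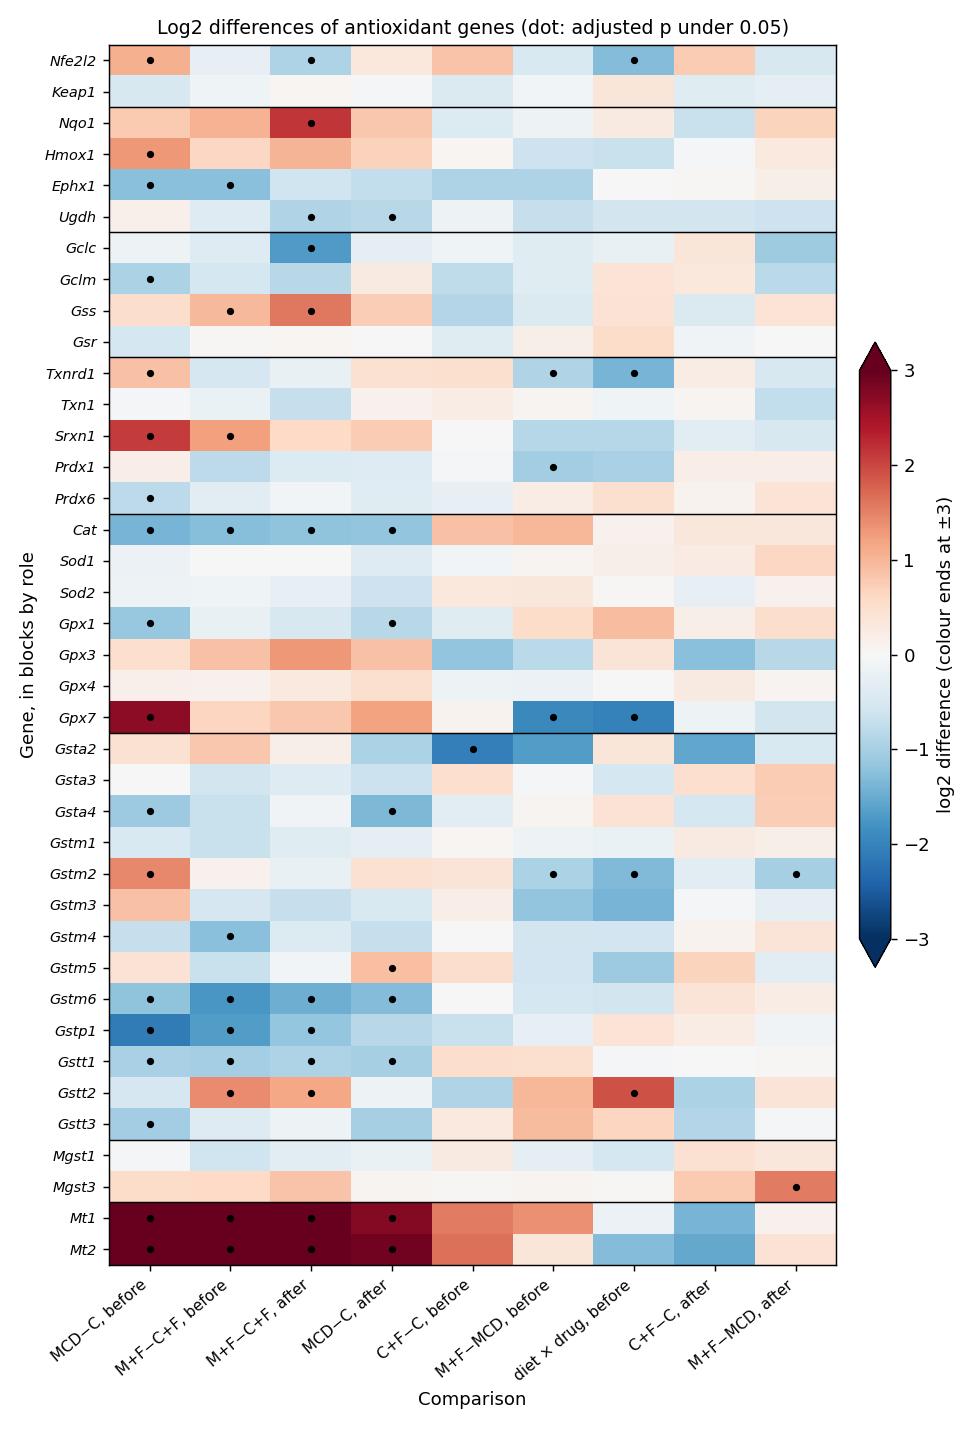
Log2 differences of 38 tested genes and Mt2 (rows, in blocks by role) in 9 comparisons (columns), red for higher and blue for lower in the first-named group, with a dot where the limma adjusted p was under 0.05. Colours end at ±3, so larger differences, such as that of 4.26 for Mt1 in the treated pair after PH, are shown at the end of the scale. The bottom rows, Mt1 and Mt2, carry a dot in all 4 diet columns, as do Cat, Gstm6 and Gstt1 in blue.

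Mt1 and Mt2, the zinc-binding metallothioneins, were higher on MCD than on chow in all 4 diet comparisons, 6.78-fold to 19.2-fold for Mt1 and 7.47-fold to 29-fold for Mt2, and in none of them did the groups overlap. Before PH, Mt1 read 4.27, 5.01, 3.13 and 3.84 in C and 7.22, 7.76, 7.49 and 7.86 in MCD. The highest C array was below the lowest MCD array (11.5-fold, log2 difference 3.52 ± 0.51 (SE), adjusted p = 1.26e-05). With Fc-GLP-1, Mt1 read 5.09, 6.96, 4.54 and 5.93 in C+Fc-GLP-1 and 9.41, 8.72, 8.38 and 9.35 in M+Fc-GLP-1. The groups were again apart (10.1-fold, log2 difference 3.34 ± 0.51 (SE), adjusted p = 4.71e-05). After PH, Mt1 read 8.73, 6.09, 5.24 and 6.23 in C and 9.43, 9.50, 9.16 and 9.23 in MCD. Replicate 1 of C stood well above the other 3 C arrays yet below every MCD array (6.78-fold, log2 difference 2.76 ± 0.51 (SE), adjusted p = 0.000496). After PH, Mt1 with Fc-GLP-1 read 5.91, 5.20, 4.86 and 4.77 in C+Fc-GLP-1 and 9.36, 9.71, 9.52 and 9.20 in M+Fc-GLP-1. This was the largest diet difference of Mt1 (19.2-fold, log2 difference 4.26 ± 0.51 (SE), adjusted p = 1.11e-06). A second Mt1 probe gave log2 differences of 4.29, 1.39 and 4.13 in the 3 comparisons within a slide, so the probes were furthest from each other in the treated pair before PH. These Mt1 calls were kept under every alternative tried and with each array left out.

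Mt2 was measured by 1 probe at chr8:96697371-96697430 (mm9), and its tests come from a fit in which the marked M+Fc-GLP-1 array before PH, replicate 2, was a missing value. Before PH, Mt2 read 2.69, 3.85, 1.93 and 3.16 in C and 7.00, 7.59, 7.68 and 7.52 in MCD. All 4 MCD arrays were above all 4 C arrays (23.3-fold, log2 difference 4.54 ± 0.68 (SE), adjusted p = 2.34e-05). With Fc-GLP-1, Mt2 read 3.66, 6.63, 4.34 and 3.62 in C+Fc-GLP-1 and 7.70, 7.69 and 8.02 in replicates 1, 3 and 4 of M+Fc-GLP-1. The second C+Fc-GLP-1 array was the highest of its group, as it was for Mt1, and the difference was 3.25 ± 0.73 (SE) with adjusted p = 0.00425. After PH, Mt2 read 8.52, 5.53, 3.71 and 5.66 in C and 8.78, 8.78, 8.57 and 8.89 in MCD. As with Mt1, replicate 1 of C was the highest C array, below every MCD array (7.47-fold, log2 difference 2.90 ± 0.68 (SE), adjusted p = 0.00528). The Mt2 call after PH was lost under a fit on the compared arrays alone (adjusted p = 0.0605). After PH, Mt2 with Fc-GLP-1 read 5.89, 4.38, 3.42 and 3.59 in C+Fc-GLP-1 and 9.05, 9.69, 9.49 and 8.48 in M+Fc-GLP-1. The lowest M+Fc-GLP-1 array was above the highest C+Fc-GLP-1 array (29-fold, log2 difference 4.86 ± 0.68 (SE), adjusted p = 1.43e-05). The drug differences of both metallothioneins missed the threshold before PH: M+Fc-GLP-1 against MCD gave 1.38 ± 0.51 (SE) for Mt1 (adjusted p = 0.0921) and 0.36 ± 0.73 (SE) for Mt2 (adjusted p = 0.81) before PH. In chow livers before PH the drug difference was 1.56 ± 0.51 (SE) for Mt1 (adjusted p = 0.0946) and 1.65 ± 0.68 (SE) for Mt2 (adjusted p = 0.187), across slides. Before PH, Mt1 was called higher with drug in chow livers under median centring (log2 difference 1.87, adjusted p = 0.0348). In MCD livers before PH it was called higher under a fit on the compared arrays alone (log2 difference 1.38, adjusted p = 0.0243). After PH the drug difference of Mt1 was -1.38 in chow livers and 0.12 in MCD livers, neither called.

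**Figure D2:**
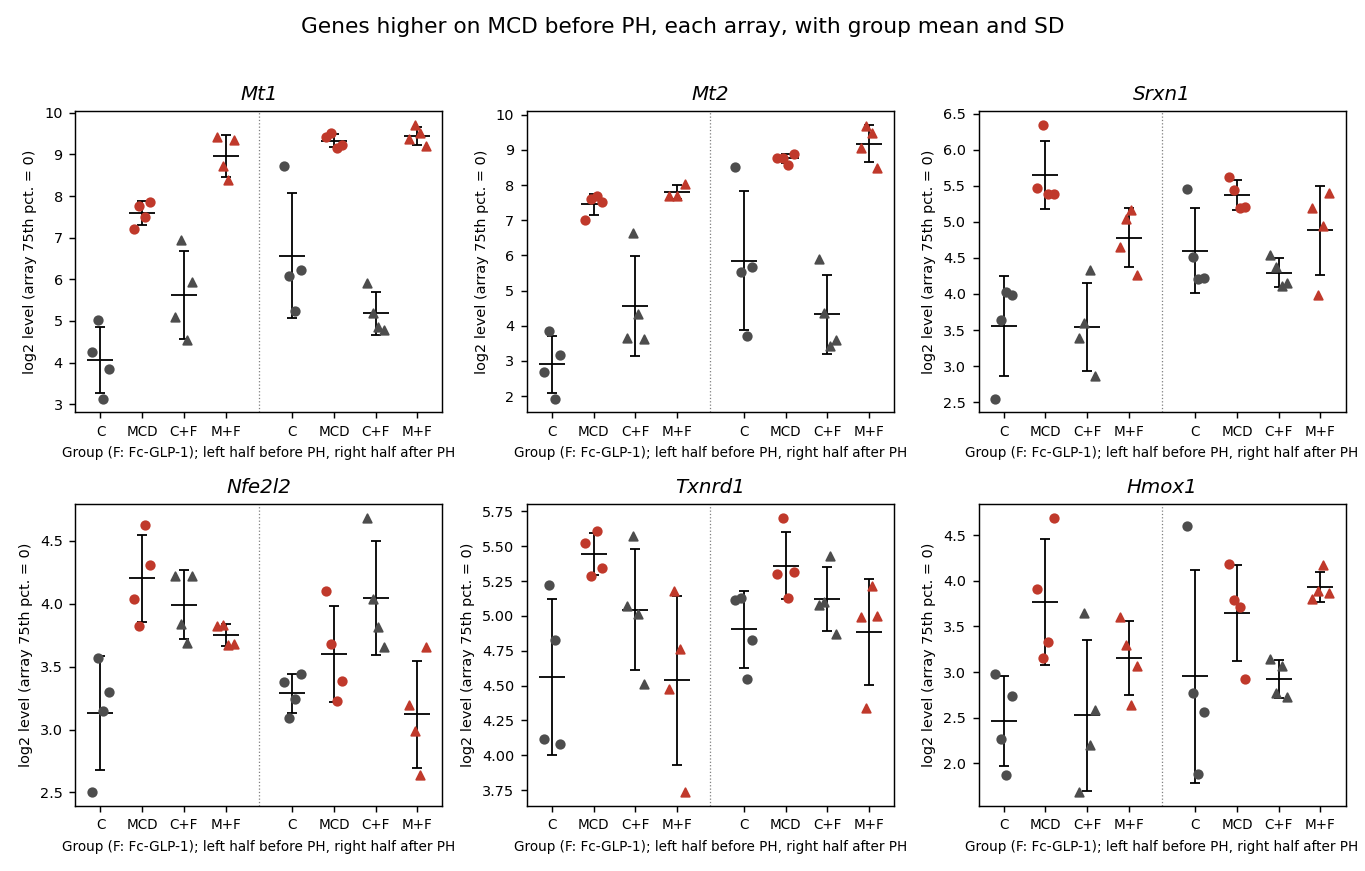
Levels (log2, array 75th percentile at 0) of Mt1, Mt2, Srxn1, Nfe2l2, Txnrd1 and Hmox1 in every array of the 8 groups, with chow in grey, MCD in red, triangles for Fc-GLP-1, and bars for the group mean ± SD (n = 4; n = 3 for Mt2 in M+Fc-GLP-1 before PH). The red points of Mt1 and Mt2 lie above the grey points beside them in all 4 pairs, while those of Nfe2l2 lie above before PH without drug and below after PH with drug.

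Of the regulators, Nfe2l2 rose on MCD before PH and Keap1, which encodes the adaptor that targets NRF2 for degradation, was called in no comparison. Before PH, Nfe2l2 read 2.50, 3.57, 3.15 and 3.30 in C and 4.04, 3.83, 4.63 and 4.31 in MCD. Each MCD array was above each C array (2.1-fold, log2 difference 1.07 ± 0.26 (SE), adjusted p = 0.00287). With Fc-GLP-1, Nfe2l2 read 4.22, 3.84, 3.69 and 4.22 in C+Fc-GLP-1 and 3.82, 3.83, 3.68 and 3.68 in M+Fc-GLP-1. With the drug the diet groups overlapped (log2 difference -0.24 ± 0.26 (SE), adjusted p = 0.609). The diet difference was smaller with the drug than without it, by -1.31 ± 0.36 (SE) on the log2 scale (adjusted p = 0.0319). The Nfe2l2 call of the interaction was lost without C replicate 1, MCD replicates 3 or 4, C+Fc-GLP-1 replicates 1 or 4 or M+Fc-GLP-1 replicates 3 or 4 (adjusted p = 0.051 to 0.073) and under normexp with quantile normalization, the authors' log2 values or no dim-probe filter (adjusted p = 0.0537 to 0.123). After PH, Nfe2l2 read 3.37, 3.09, 3.24 and 3.44 in C and 4.10, 3.68, 3.23 and 3.38 in MCD. These groups overlapped (log2 difference 0.31 ± 0.26 (SE), adjusted p = 0.485). After PH, Nfe2l2 with Fc-GLP-1 read 4.68, 4.04, 3.81 and 3.66 in C+Fc-GLP-1 and 3.20, 2.99, 2.64 and 3.65 in M+Fc-GLP-1. Every M+Fc-GLP-1 array was below every C+Fc-GLP-1 array, the nearest at 3.65 and 3.66, and the difference ran opposite to that before PH without drug (log2 difference -0.93 ± 0.26 (SE), adjusted p = 0.015). The Nfe2l2 call after PH was lost without C+Fc-GLP-1 replicate 1 or M+Fc-GLP-1 replicate 3 (adjusted p = 0.0679 to 0.0764) and under normexp with quantile normalization, the authors' log2 values or a fit on the compared arrays alone (adjusted p = 0.0555 to 0.0845). Before PH, Keap1 read 4.83, 4.62, 4.54 and 4.11 in C and 3.95, 4.16, 3.89 and 4.20 in MCD. With Fc-GLP-1, Keap1 read 3.69, 4.24, 4.13 and 4.31 in C+Fc-GLP-1 and 4.23, 4.28, 3.98 and 3.39 in M+Fc-GLP-1. Both pairs overlapped (log2 difference -0.48 ± 0.22 (SE), adjusted p = 0.0998 without drug). After PH, Keap1 read 4.08, 4.03, 4.30 and 4.28 in C and 4.25, 3.93, 4.10 and 4.24 in MCD. After PH, Keap1 with Fc-GLP-1 read 3.98, 4.03, 3.36 and 3.81 in C+Fc-GLP-1 and 3.78, 3.47, 4.22 and 3.98 in M+Fc-GLP-1. The log2 differences after PH were -0.04 without and 0.07 with drug, neither past the threshold.

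Among NRF2 targets of quinone and heme handling, Nqo1, the NAD(P)H quinone reductase, rose on MCD after PH with drug. Before PH, Nqo1 read 0.50, -0.12, 0.30 and -0.34 in C and 0.97, 0.73, 0.50 and 1.28 in MCD. With Fc-GLP-1, Nqo1 read 0.35, -0.57, -0.22 and -0.86 in C+Fc-GLP-1 and 0.40, 0.92, 0.59 and 0.98 in M+Fc-GLP-1. MCD arrays were above chow arrays in both pairs, narrowly without drug, and neither difference passed the threshold (log2 difference 0.79 ± 0.40 (SE), adjusted p = 0.148 without drug and log2 difference 1.05 ± 0.40 (SE), adjusted p = 0.0944 with it). The difference without drug was called under median centring (adjusted p = 0.0482), and that with drug under normexp with quantile normalization and the authors' log2 values (adjusted p = 0.0489 and 0.0476). After PH, Nqo1 read 1.20, -0.43, -0.79 and 0.07 in C and 0.23, 0.58, 0.67 and 1.81 in MCD. After PH, Nqo1 with Fc-GLP-1 read -1.01, 0.33, -0.87 and -1.05 in C+Fc-GLP-1 and 0.61, 1.60, 1.36 and 2.41 in M+Fc-GLP-1. After PH the drug-treated groups did not overlap (4.42-fold, log2 difference 2.15 ± 0.40 (SE), adjusted p = 0.000479), and the untreated ones did (log2 difference 0.81 ± 0.40 (SE), adjusted p = 0.206). The Nqo1 call after PH was kept under every alternative and with each array left out, and the change of the diet difference with time under drug was not called (log2 difference 1.10 ± 0.57 (SE), adjusted p = 0.548).

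Hmox1, heme oxygenase, rose on MCD before PH without drug. Before PH, Hmox1 read 2.98, 2.26, 1.88 and 2.74 in C and 3.91, 3.15, 3.33 and 4.69 in MCD. The MCD arrays were all above the C arrays (2.47-fold, log2 difference 1.30 ± 0.43 (SE), adjusted p = 0.0256). The Hmox1 call was lost without C replicates 2 or 3 or MCD replicates 1 or 4 (adjusted p = 0.0549 to 0.111) and under the mean over probes (adjusted p = 0.154). Hmox1 had a log2 difference of 0.57 with the mean over probes. A second Hmox1 probe, at chr8:77620797-77620856 (mm9), gave a log2 difference of -0.17. With Fc-GLP-1, Hmox1 read 1.69, 3.64, 2.20 and 2.58 in C+Fc-GLP-1 and 3.61, 3.29, 2.64 and 3.07 in M+Fc-GLP-1. After PH, Hmox1 read 4.60, 2.77, 1.88 and 2.56 in C and 4.18, 3.78, 3.71 and 2.92 in MCD. Both pairs overlapped. After PH, Hmox1 with Fc-GLP-1 read 3.14, 2.77, 3.06 and 2.73 in C+Fc-GLP-1 and 3.80, 3.89, 4.18 and 3.87 in M+Fc-GLP-1. The lowest M+Fc-GLP-1 array was above the highest C+Fc-GLP-1 array, yet the difference did not pass (log2 difference 1.01 ± 0.43 (SE), adjusted p = 0.13), except in a fit on the compared arrays alone (adjusted p = 0.0176). Replicate 1 of C after PH was the highest C array for Hmox1, as for Mt1 and Mt2.

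Ephx1, microsomal epoxide hydrolase, fell on MCD before PH with and without drug. Before PH, Ephx1 read 4.87, 3.59, 4.45 and 4.68 in C and 3.32, 3.31, 2.88 and 3.1 in MCD. With Fc-GLP-1, Ephx1 read 2.84, 4.04, 3.61 and 3.41 in C+Fc-GLP-1 and 2.75, 2.39, 1.28 and 2.50 in M+Fc-GLP-1. In both pairs every MCD array was below every chow array (log2 difference -1.24 ± 0.33 (SE), adjusted p = 0.00666 without and log2 difference -1.25 ± 0.33 (SE), adjusted p = 0.0143 with drug). The Ephx1 call without drug was lost under median centring (adjusted p = 0.0823). The Ephx1 call with drug was lost without C+Fc-GLP-1 replicate 2 or M+Fc-GLP-1 replicate 3 (adjusted p = 0.0656 to 0.0806) and under a fit on the compared arrays alone (adjusted p = 0.0754). After PH, Ephx1 read 3.72, 3.94, 4.13 and 3.80 in C and 2.77, 2.98, 3.61 and 3.31 in MCD. After PH, Ephx1 with Fc-GLP-1 read 3.39, 3.74, 4.34 and 4.28 in C+Fc-GLP-1 and 3.92, 3.08, 2.56 and 3.80 in M+Fc-GLP-1. After PH the untreated pair was apart and the treated pair overlapped, and neither difference passed (log2 difference -0.73 ± 0.33 (SE), adjusted p = 0.161 without and log2 difference -0.59 ± 0.33 (SE), adjusted p = 0.273 with drug). A second Ephx1 probe was left out because of 1 marked spot.

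Ugdh, which makes the UDP-glucuronate used in conjugation, fell on MCD after PH. Before PH, Ugdh read 4.91, 5.12, 5.27 and 5.63 in C and 5.25, 5.21, 5.72 and 5.40 in MCD. With Fc-GLP-1, Ugdh read 5.07, 4.81, 5.0 and 5.41 in C+Fc-GLP-1 and 4.71, 4.30, 4.84 and 4.92 in M+Fc-GLP-1. Before PH both pairs overlapped (log2 difference 0.16 ± 0.28 (SE), adjusted p = 0.698 without drug). After PH, Ugdh read 5.95, 5.51, 5.62 and 5.80 in C and 4.26, 4.72, 5.19 and 5.34 in MCD. After PH, Ugdh with Fc-GLP-1 read 5.26, 5.10, 5.37 and 4.92 in C+Fc-GLP-1 and 3.41, 4.22, 4.21 and 5.23 in M+Fc-GLP-1. After PH it was lower on MCD without drug, with no overlap (log2 difference -0.84 ± 0.28 (SE), adjusted p = 0.0422), and with drug, where 1 M+Fc-GLP-1 array lay in the C+Fc-GLP-1 range (log2 difference -0.90 ± 0.28 (SE), adjusted p = 0.029). The Ugdh call without drug was lost without C replicates 1, 2, 3 or 4 or MCD replicates 1 or 2 (adjusted p = 0.0596 to 0.174) and under normexp with quantile normalization, median centring, the authors' log2 values, no dim-probe filter or a fit on the compared arrays alone (adjusted p = 0.0865 to 0.235). The Ugdh call with drug was lost without C+Fc-GLP-1 replicates 1, 2 or 3 or M+Fc-GLP-1 replicates 1, 2 or 3 (adjusted p = 0.0502 to 0.157) and under normexp with quantile normalization, median centring, the authors' log2 values, no dim-probe filter or a fit on the compared arrays alone (adjusted p = 0.0528 to 0.162).

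Of the 4 tested genes of glutathione synthesis and recycling, Gclm fell on MCD against chow before PH without drug. Among treated livers, Gclc fell on MCD against chow after PH, and Gss rose on MCD against chow at both times. Gsr was not called with the settings used throughout. Gclc and Gclm encode the catalytic and modifier subunits of glutamate-cysteine ligase, the rate-limiting step. Before PH, Gclc read 4.85, 5.75, 5.79 and 5.65 in C and 5.31, 5.22, 5.51 and 5.39 in MCD. With Fc-GLP-1, Gclc read 4.61, 5.86, 5.49 and 5.55 in C+Fc-GLP-1 and 4.96, 5.21, 5.05 and 4.76 in M+Fc-GLP-1. The diet pairs overlapped before PH (log2 difference -0.15 ± 0.34 (SE), adjusted p = 0.777 without drug). After PH, Gclc read 5.02, 6.08, 6.09 and 5.70 in C and 5.42, 5.23, 5.50 and 5.68 in MCD. After PH, Gclc with Fc-GLP-1 read 5.50, 6.48, 7.03 and 5.34 in C+Fc-GLP-1 and 4.03, 3.96, 5.39 and 4.20 in M+Fc-GLP-1. After PH with drug Gclc was lower in M+Fc-GLP-1 although its highest array, replicate 3, reached into the C+Fc-GLP-1 range (3.24-fold, log2 difference -1.70 ± 0.34 (SE), adjusted p = 0.001), a call kept under every alternative and with each array left out. Without drug after PH the pair overlapped (log2 difference -0.27 ± 0.34 (SE), adjusted p = 0.679).

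Before PH, Gclm read 2.67, 1.87, 2.58 and 2.63 in C and 1.58, 1.49, 1.34 and 1.59 in MCD. The highest MCD array was below the lowest C array (log2 difference -0.94 ± 0.32 (SE), adjusted p = 0.0294). The Gclm call was lost without C replicates 1, 3 or 4 or MCD replicates 2 or 3 (adjusted p = 0.0539 to 0.0757) and under normexp with quantile normalization, median centring or the authors' log2 values (adjusted p = 0.0558 to 0.225). Gclm had a log2 difference of -0.57 with median centring. With Fc-GLP-1, Gclm read 1.17, 2.24, 1.89 and 1.39 in C+Fc-GLP-1 and 0.75, 2.08, 0.94 and 0.80 in M+Fc-GLP-1. After PH, Gclm read 1.10, 1.46, 2.36 and 2.06 in C and 1.78, 1.38, 2.35 and 2.55 in MCD. Both of these pairs overlapped. After PH, Gclm with Fc-GLP-1 read 1.85, 1.54, 2.60 and 2.21 in C+Fc-GLP-1 and 1.05, 1.27, 1.48 and 1.04 in M+Fc-GLP-1. Every M+Fc-GLP-1 array was below every C+Fc-GLP-1 array, by a difference that did not pass (log2 difference -0.84 ± 0.32 (SE), adjusted p = 0.0821).

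Gss, glutathione synthetase, the second step, moved the other way. Before PH, Gss read 4.28, 3.17, 3.48 and 3.42 in C and 4.27, 4.46, 3.72 and 4.01 in MCD. With Fc-GLP-1, Gss read 2.28, 2.27, 2.92 and 3.40 in C+Fc-GLP-1 and 3.99, 3.67, 3.64 and 3.43 in M+Fc-GLP-1. Without drug the pair overlapped (log2 difference 0.53 ± 0.27 (SE), adjusted p = 0.153), though it was called under median centring (adjusted p = 0.0468), and with drug each M+Fc-GLP-1 array was above each C+Fc-GLP-1 array (1.95-fold, log2 difference 0.96 ± 0.27 (SE), adjusted p = 0.0217). The Gss call before PH was lost without C+Fc-GLP-1 replicates 1 or 2 or M+Fc-GLP-1 replicate 1 (adjusted p = 0.0682 to 0.0887) and under median centring or a fit on the compared arrays alone (adjusted p = 0.0879 to 0.172). After PH, Gss read 3.95, 3.27, 2.69 and 3.28 in C and 3.78, 4.37, 4.31 and 3.71 in MCD. After PH, Gss with Fc-GLP-1 read 3.05, 2.57, 2.93 and 2.95 in C+Fc-GLP-1 and 4.24, 4.55, 4.4 and 4.62 in M+Fc-GLP-1. After PH with drug the gap was wider (2.99-fold, log2 difference 1.58 ± 0.27 (SE), adjusted p = 0.000194) and was kept under every alternative and with each array left out. Without drug after PH the groups overlapped and the log2 difference was 0.75 ± 0.27 (SE), adjusted p = 0.0738. Gsr, glutathione reductase, gave log2 differences from -0.52 to 0.06 in the 4 diet comparisons, none called with these settings. Ggt1, gamma-glutamyltransferase, was not well above background on any array of 7 groups and on 1 of 4 MCD arrays before PH.

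In the thioredoxin and peroxiredoxin system, Srxn1 and Txnrd1 rose on MCD before PH without drug, Prdx6 fell, and Txn1 and Prdx1 were not called for diet. Srxn1 encodes sulfiredoxin, which reduces overoxidised peroxiredoxins. Before PH, Srxn1 read 2.55, 3.64, 4.03 and 3.99 in C and 5.46, 6.35, 5.39 and 5.39 in MCD. The groups were apart and MCD replicate 2 was the highest (4.27-fold, log2 difference 2.09 ± 0.35 (SE), adjusted p = 7.88e-05), a call kept under every alternative and with each array left out. With Fc-GLP-1, Srxn1 read 3.39, 3.60, 4.34 and 2.86 in C+Fc-GLP-1 and 4.65, 5.04, 5.16 and 4.26 in M+Fc-GLP-1. The lowest M+Fc-GLP-1 array lay just under the highest C+Fc-GLP-1 array (2.35-fold, log2 difference 1.23 ± 0.35 (SE), adjusted p = 0.0211). The Srxn1 call with drug was lost without C+Fc-GLP-1 replicate 4 or M+Fc-GLP-1 replicates 2 or 3 (adjusted p = 0.0508 to 0.0858) and under median centring or a fit on the compared arrays alone (adjusted p = 0.0617 to 0.106). After PH, Srxn1 read 5.46, 4.51, 4.21 and 4.22 in C and 5.62, 5.44, 5.20 and 5.20 in MCD. After PH, Srxn1 with Fc-GLP-1 read 4.54, 4.37, 4.11 and 4.15 in C+Fc-GLP-1 and 5.19, 3.99, 4.95 and 5.40 in M+Fc-GLP-1. After PH both pairs overlapped (log2 difference 0.77 ± 0.35 (SE), adjusted p = 0.163 without and log2 difference 0.59 ± 0.35 (SE), adjusted p = 0.311 with drug).

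Txnrd1 encodes the cytosolic thioredoxin reductase. Before PH, Txnrd1 read 4.11, 5.22, 4.83 and 4.08 in C and 5.52, 5.29, 5.61 and 5.34 in MCD. The MCD arrays lay above all 4 C arrays and closer together (1.84-fold, log2 difference 0.88 ± 0.28 (SE), adjusted p = 0.0211). The Txnrd1 call for diet was lost without C replicates 1 or 4 or MCD replicate 3 (adjusted p = 0.055 to 0.0805). Txnrd1 had a log2 difference for diet of 1.59 with normexp with quantile normalization and 1.63 with the authors' log2 values. With Fc-GLP-1, Txnrd1 read 5.07, 5.58, 5.02 and 4.51 in C+Fc-GLP-1 and 4.48, 5.18, 4.76 and 3.74 in M+Fc-GLP-1. With drug the pair overlapped with M+Fc-GLP-1 lower on average (log2 difference -0.51 ± 0.28 (SE), adjusted p = 0.268), and the diet difference was smaller with drug than without by -1.39 ± 0.40 (SE) (adjusted p = 0.037). The Txnrd1 call of the interaction was lost without C replicates 1 or 4, MCD replicates 1 or 3, C+Fc-GLP-1 replicates 2 or 3 or M+Fc-GLP-1 replicates 1 or 4 (adjusted p = 0.054 to 0.0817) and under no dim-probe filter or a fit on the compared arrays alone (adjusted p = 0.0585 to 0.0833). After PH, Txnrd1 read 5.11, 5.13, 4.55 and 4.83 in C and 5.30, 5.70, 5.13 and 5.32 in MCD. After PH, Txnrd1 with Fc-GLP-1 read 5.08, 5.10, 5.43 and 4.87 in C+Fc-GLP-1 and 4.99, 4.34, 5.21 and 5.0 in M+Fc-GLP-1. Both pairs overlapped after PH (log2 difference 0.46 ± 0.28 (SE), adjusted p = 0.323 without and log2 difference -0.23 ± 0.28 (SE), adjusted p = 0.676 with drug).

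Prdx6, a peroxiredoxin with phospholipase activity, fell on MCD before PH. Before PH, Prdx6 read 8.19, 7.38, 7.78 and 7.80 in C and 7.28, 6.75, 7.23 and 6.76 in MCD. These groups did not overlap (log2 difference -0.78 ± 0.22 (SE), adjusted p = 0.0105). The Prdx6 call was lost under normexp with quantile normalization, median centring or the authors' log2 values (adjusted p = 0.0911 to 0.279). Prdx6 had a log2 difference of -0.47 with normexp with quantile normalization, -0.42 with median centring and -0.48 with the authors' log2 values. With Fc-GLP-1, Prdx6 read 7.58, 7.48, 7.38 and 7.72 in C+Fc-GLP-1 and 7.04, 7.66, 7.34 and 6.87 in M+Fc-GLP-1. After PH, Prdx6 read 6.16, 7.16, 7.02 and 6.91 in C and 6.22, 6.68, 6.49 and 6.39 in MCD. After PH, Prdx6 with Fc-GLP-1 read 6.70, 7.27, 6.78 and 6.96 in C+Fc-GLP-1 and 7.01, 6.83, 6.70 and 6.89 in M+Fc-GLP-1. All 3 of these pairs overlapped, with log2 differences of -0.31, -0.37 and -0.07. The untreated pair after PH was called lower with the mean over probes (adjusted p = 0.0378). Txn1, thioredoxin, was closest to a call in M+Fc-GLP-1 against C+Fc-GLP-1 after PH (log2 difference -0.69 ± 0.25 (SE), adjusted p = 0.0651). Prdx1 gave diet differences from -0.78 with drug to 0.20 without it before PH.

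Of the genes that remove superoxide and peroxide, Cat fell on MCD in every diet comparison, Gpx1 fell without drug at both times and Gpx7 rose before PH. Catalase, the product of Cat, breaks down hydrogen peroxide in peroxisomes. Before PH, Cat read 6.46, 5.30, 6.13 and 5.95 in C and 4.62, 4.14, 4.97 and 4.55 in MCD. With Fc-GLP-1, Cat read 6.89, 6.86, 7.05 and 6.56 in C+Fc-GLP-1 and 5.70, 4.66, 6.01 and 5.91 in M+Fc-GLP-1. MCD arrays were below chow arrays in both pairs (2.62-fold, log2 difference -1.39 ± 0.35 (SE), adjusted p = 0.00414, and 2.41-fold, log2 difference -1.27 ± 0.35 (SE), adjusted p = 0.0174). The Cat call with drug before PH was lost without C+Fc-GLP-1 replicate 3 or M+Fc-GLP-1 replicate 2 (adjusted p = 0.0506 to 0.0743). After PH, Cat read 4.92, 6.28, 6.04 and 5.36 in C and 4.54, 4.01, 4.20 and 5.07 in MCD. After PH, Cat with Fc-GLP-1 read 4.96, 6.27, 6.05 and 6.67 in C+Fc-GLP-1 and 4.70, 5.21, 4.38 and 4.86 in M+Fc-GLP-1. After PH the means stood 2.29-fold apart without drug (log2 difference -1.19 ± 0.35 (SE), adjusted p = 0.023) and 2.3-fold apart with it (log2 difference -1.20 ± 0.35 (SE), adjusted p = 0.0204), each pair with some overlap. The Cat call without drug after PH was lost without C replicates 2 or 3 or MCD replicates 2 or 3 (adjusted p = 0.0602 to 0.0999) and under median centring or a fit on the compared arrays alone (adjusted p = 0.0689 to 0.0694). The Cat call with drug after PH was lost without C+Fc-GLP-1 replicates 2 or 4 or M+Fc-GLP-1 replicate 3 (adjusted p = 0.0614 to 0.0914) and under a fit on the compared arrays alone (adjusted p = 0.0631). A second Cat probe fell by 1.82, 1.51 and 1.23 on the log2 scale in the 3 comparisons within a slide.

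Gpx1, the abundant cytosolic glutathione peroxidase, was lower on MCD before PH. Before PH, Gpx1 read 9.88, 9.90, 10.59 and 10.41 in C and 9.20, 8.96, 9.22 and 8.82 in MCD. After PH, Gpx1 read 9.21, 9.70, 9.91 and 9.49 in C and 8.93, 8.77, 8.81 and 8.51 in MCD. The pairs did not overlap (2.21-fold, log2 difference -1.15 ± 0.22 (SE), adjusted p = 0.000299, and 1.77-fold, log2 difference -0.82 ± 0.22 (SE), adjusted p = 0.0118). The Gpx1 call before PH was lost under normexp with quantile normalization or the authors' log2 values (adjusted p = 0.432 to 0.448). Gpx1 had a log2 difference before PH of -0.33 with normexp with quantile normalization and -0.33 with the authors' log2 values. The Gpx1 call after PH was lost without C replicate 3 (adjusted p = 0.0556) and under normexp with quantile normalization, median centring or the authors' log2 values (adjusted p = 0.09 to 0.0992). With Fc-GLP-1, Gpx1 read 9.54, 9.95, 9.86 and 9.94 in C+Fc-GLP-1 and 9.93, 9.38, 9.28 and 9.79 in M+Fc-GLP-1. After PH, Gpx1 with Fc-GLP-1 read 9.60, 9.61, 9.79 and 9.98 in C+Fc-GLP-1 and 9.55, 9.46, 9.36 and 8.73 in M+Fc-GLP-1. With drug the pair overlapped before PH and not after it, and neither difference passed (log2 difference -0.23 ± 0.22 (SE), adjusted p = 0.553 before and log2 difference -0.47 ± 0.22 (SE), adjusted p = 0.161 after PH), and the change of the diet difference with drug before PH was 0.92 ± 0.30 (SE), adjusted p = 0.067.

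Gpx7, an endoplasmic reticulum peroxidase, was well above background on 21 of the 32 arrays, among them every array after PH but 1 of C+Fc-GLP-1. Before PH these were 4 MCD arrays, 1 C array and 1 M+Fc-GLP-1 array. Before PH, Gpx7 read -4.43, -3.92, -4.08 and -4.91 in C and -2.03, -1.45, -1.42 and -1.71 in MCD. The C mean rests on 1 array of 4 well above background and MCD on all 4 (6.43-fold, log2 difference 2.69 ± 0.43 (SE), adjusted p = 5.5e-05). Gpx7 had a log2 difference for diet of 1.33 with normexp with quantile normalization and 1.19 with the authors' log2 values. With Fc-GLP-1, Gpx7 read -3.26, -5.47, -4.95 and -3.23 in C+Fc-GLP-1 and -4.35, -3.09, -3.50 and -3.36 in M+Fc-GLP-1. These groups overlapped, and the difference, between groups mostly not well above background, did not pass (adjusted p = 0.376). The diet difference changed with drug by -2.03 ± 0.61 (SE) (adjusted p = 0.046), a term that includes 3 groups mostly not well above background. The Gpx7 call of the interaction was lost without C replicates 1 or 4, MCD replicates 1, 2, 3 or 4, C+Fc-GLP-1 replicates 1 or 4 or M+Fc-GLP-1 replicates 1, 3 or 4 (adjusted p = 0.0584 to 0.0992) and under no dim-probe filter, a fit on the compared arrays alone or the replicate block (adjusted p = 0.0573 to 0.0667). Gpx7 had a log2 difference of the interaction of -1.29 with normexp with quantile normalization and -1.15 with the authors' log2 values. After PH, Gpx7 read -2.23, -3.16, -3.65 and -2.27 in C and -2.19, -1.37, -1.40 and -1.56 in MCD. After PH, Gpx7 with Fc-GLP-1 read -2.01, -3.14, -2.99 and -3.78 in C+Fc-GLP-1 and -2.85, -2.23, -1.99 and -1.62 in M+Fc-GLP-1. After PH the untreated pair was apart and the treated pair overlapped, with log2 differences of 1.20 and 0.81, neither past the threshold. The untreated difference after PH was called higher under median centring (adjusted p = 0.0445), normexp with quantile normalization (adjusted p = 0.0213) and the authors' log2 values (adjusted p = 0.0151). Sod1 and Sod2, the cytosolic and mitochondrial superoxide dismutases, and Gpx4, which reduces phospholipid hydroperoxides, gave diet differences between -0.63 and 0.48. Gpx3, the secreted plasma peroxidase, gave diet differences from 0.50 to 1.29, with none called.

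**Figure D3:**
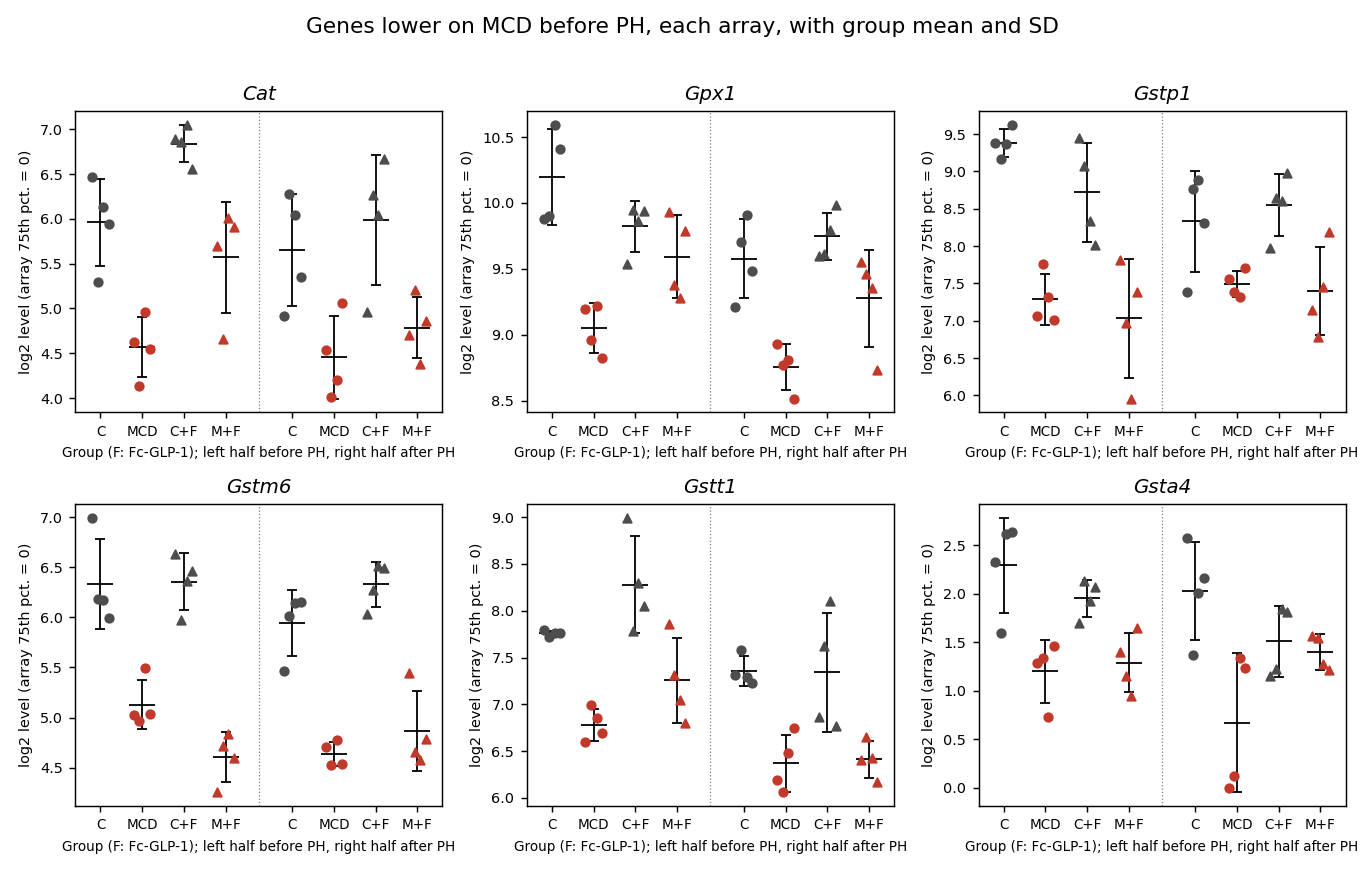
Levels (log2, array 75th percentile at 0) of Cat, Gpx1, Gstp1, Gstm6, Gstt1 and Gsta4 in every array of the 8 groups, chow in grey and MCD in red, triangles for Fc-GLP-1, bars for mean ± SD (n = 4). Gstm6 shows the red points below the grey ones in all 4 pairs, at group means of 4.60 to 5.13 on MCD and 5.94 to 6.36 on chow.

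Cytosolic glutathione S-transferases conjugate glutathione to electrophiles, and their alpha, mu, pi and theta classes share sequence, so probes may read close relatives. Of 13, 1 rose and 5 fell on MCD before PH without drug (46.2% called), and 1 rose and 4 fell with drug (38.5%). After PH 1 rose and 3 fell in each comparison (30.8%). Of all genes, 26.4% were called without and 10.4% with drug before PH, and 12.1% and 12.8% after PH. All genes called lower were 15.5, 5.01, 6.08 and 6.62% in the same order. Gstp1, the pi class enzyme, fell on MCD in the 3 comparisons within a slide. Before PH, Gstp1 read 9.38, 9.16, 9.36 and 9.62 in C and 7.06, 7.76, 7.31 and 7.01 in MCD. With Fc-GLP-1, Gstp1 read 9.45, 9.07, 8.34 and 8.02 in C+Fc-GLP-1 and 7.81, 6.97, 5.96 and 7.38 in M+Fc-GLP-1. No MCD array reached a chow array in either pair (4.27-fold, log2 difference -2.09 ± 0.36 (SE), adjusted p = 0.000122, and 3.22-fold, log2 difference -1.69 ± 0.36 (SE), adjusted p = 0.00256). The Gstp1 call with drug before PH was lost under a fit on the compared arrays alone (adjusted p = 0.0504). After PH, Gstp1 read 7.39, 8.76, 8.88 and 8.30 in C and 7.56, 7.38, 7.31 and 7.71 in MCD. After PH, Gstp1 with Fc-GLP-1 read 7.97, 8.64, 8.60 and 8.97 in C+Fc-GLP-1 and 7.15, 6.79, 7.46 and 8.18 in M+Fc-GLP-1. After PH both pairs overlapped, and the difference passed with drug (log2 difference -1.15 ± 0.36 (SE), adjusted p = 0.0333) and not without (log2 difference -0.84 ± 0.36 (SE), adjusted p = 0.135), except with the mean over probes (adjusted p = 0.049). The Gstp1 call with drug after PH was lost without C+Fc-GLP-1 replicates 2, 3 or 4 or M+Fc-GLP-1 replicates 1, 2 or 3 (adjusted p = 0.0571 to 0.127) and under no dim-probe filter or a fit on the compared arrays alone (adjusted p = 0.0561 to 0.064). A second Gstp1 probe fell by 2.31, 2.2 and 1.44 on the log2 scale in the 3 comparisons within a slide.

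Gstm6 of the mu class fell in all 4 diet comparisons with no overlap in any. Before PH, Gstm6 read 6.99, 6.18, 6.18 and 5.99 in C and 5.02, 4.97, 5.49 and 5.04 in MCD. With Fc-GLP-1, Gstm6 read 6.63, 5.97, 6.36 and 6.46 in C+Fc-GLP-1 and 4.26, 4.72, 4.84 and 4.60 in M+Fc-GLP-1. Both pairs were apart (2.31-fold, log2 difference -1.20 ± 0.23 (SE), adjusted p = 0.000376, and 3.37-fold, log2 difference -1.75 ± 0.23 (SE), adjusted p = 6e-06). After PH, Gstm6 read 5.46, 6.01, 6.15 and 6.15 in C and 4.71, 4.53, 4.77 and 4.54 in MCD. After PH, Gstm6 with Fc-GLP-1 read 6.03, 6.27, 6.51 and 6.49 in C+Fc-GLP-1 and 5.45, 4.65, 4.57 and 4.79 in M+Fc-GLP-1. Both were apart after PH too (2.48-fold, log2 difference -1.31 ± 0.23 (SE), adjusted p = 0.000321, and 2.75-fold, log2 difference -1.46 ± 0.23 (SE), adjusted p = 6.51e-05), and all 4 calls were kept under every alternative and with each array left out.

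Gstt1 of the theta class fell in all 4 diet comparisons, by 0.93 to 1.02 on the log2 scale. Before PH, Gstt1 read 7.79, 7.72, 7.76 and 7.76 in C and 6.60, 6.99, 6.85 and 6.69 in MCD. With Fc-GLP-1, Gstt1 read 8.99, 7.78, 8.29 and 8.06 in C+Fc-GLP-1 and 7.86, 7.32, 7.05 and 6.80 in M+Fc-GLP-1. Without drug the pair was apart (log2 difference -0.98 ± 0.27 (SE), adjusted p = 0.00775) and with drug its ends overlapped (log2 difference -1.02 ± 0.27 (SE), adjusted p = 0.012). The Gstt1 call without drug before PH was lost under median centring (adjusted p = 0.107). Gstt1 had a log2 difference without drug before PH of -0.61 with median centring. The Gstt1 call with drug before PH was lost without C+Fc-GLP-1 replicate 1 or M+Fc-GLP-1 replicate 4 (adjusted p = 0.0574 to 0.0596) and under a fit on the compared arrays alone (adjusted p = 0.0963). After PH, Gstt1 read 7.31, 7.58, 7.29 and 7.23 in C and 6.19, 6.06, 6.48 and 6.75 in MCD. After PH, Gstt1 with Fc-GLP-1 read 6.87, 7.62, 8.10 and 6.77 in C+Fc-GLP-1 and 6.41, 6.65, 6.42 and 6.17 in M+Fc-GLP-1. After PH neither pair overlapped (log2 difference -0.99 ± 0.27 (SE), adjusted p = 0.0142 without and log2 difference -0.93 ± 0.27 (SE), adjusted p = 0.019 with drug). The Gstt1 call without drug after PH was lost without C replicate 2 or MCD replicate 2 (adjusted p = 0.0512 to 0.0561). The Gstt1 call with drug after PH was lost without C+Fc-GLP-1 replicates 2 or 3 or M+Fc-GLP-1 replicate 4 (adjusted p = 0.0554 to 0.11) and under a fit on the compared arrays alone (adjusted p = 0.0954).

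Gstt2, also of the theta class, rose on MCD with drug at both times. Before PH, Gstt2 read 4.85, 4.70, 4.20 and 4.16 in C and 3.22, 4.37, 3.77 and 4.54 in MCD. With Fc-GLP-1, Gstt2 read 3.87, 2.83, 3.53 and 4.05 in C+Fc-GLP-1 and 5.05, 4.38, 5.28 and 5.21 in M+Fc-GLP-1. Without drug the pair overlapped (log2 difference -0.50 ± 0.37 (SE), adjusted p = 0.33), and with drug every M+Fc-GLP-1 array was above every C+Fc-GLP-1 array (2.65-fold, log2 difference 1.41 ± 0.37 (SE), adjusted p = 0.0137). The Gstt2 call before PH was lost without C+Fc-GLP-1 replicate 2 (adjusted p = 0.0689). The diet difference changed with drug by 1.91 ± 0.53 (SE) (adjusted p = 0.0319). The Gstt2 call of the interaction was lost without C replicates 1 or 2, MCD replicates 1 or 3, C+Fc-GLP-1 replicate 2 or M+Fc-GLP-1 replicates 1, 3 or 4 (adjusted p = 0.0515 to 0.077) and under median centring or no dim-probe filter (adjusted p = 0.0505 to 0.0874). After PH, Gstt2 read 4.70, 3.47, 3.90 and 4.26 in C and 3.58, 3.51, 4.22 and 4.36 in MCD. After PH, Gstt2 with Fc-GLP-1 read 2.20, 3.94, 3.50 and 2.92 in C+Fc-GLP-1 and 4.50, 4.94, 4.32 and 3.44 in M+Fc-GLP-1. After PH it was higher on MCD with drug, with overlap (log2 difference 1.16 ± 0.37 (SE), adjusted p = 0.0376), and -0.16 ± 0.37 (SE) without drug (adjusted p = 0.836). The Gstt2 call after PH was lost without C+Fc-GLP-1 replicates 1 or 4 or M+Fc-GLP-1 replicates 1, 2 or 3 (adjusted p = 0.0712 to 0.16) and under normexp with quantile normalization, no dim-probe filter, a fit on the compared arrays alone or the replicate block (adjusted p = 0.0501 to 0.113).

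Before PH, Gstt3 read 4.93, 5.08, 5.0 and 4.73 in C and 4.33, 3.45, 3.83 and 3.97 in MCD. The Gstt3 pair did not overlap (log2 difference -1.04 ± 0.38 (SE), adjusted p = 0.0412). The Gstt3 call was lost without C replicates 1, 2, 3 or 4 or MCD replicates 2, 3 or 4 (adjusted p = 0.052 to 0.117) and under median centring, no dim-probe filter, the replicate block or centring over probes (adjusted p = 0.0502 to 0.219). Gstt3 had a log2 difference of -0.67 with median centring. With Fc-GLP-1, Gstt3 read 5.24, 5.32, 5.38 and 4.98 in C+Fc-GLP-1 and 5.34, 4.13, 4.79 and 5.12 in M+Fc-GLP-1. After PH, Gstt3 read 6.10, 4.64, 5.0 and 4.93 in C and 3.57, 3.77, 4.72 and 4.63 in MCD. After PH, Gstt3 with Fc-GLP-1 read 2.79, 5.05, 4.97 and 4.30 in C+Fc-GLP-1 and 3.85, 4.57, 4.19 and 3.86 in M+Fc-GLP-1. All 3 of these pairs overlapped, with log2 differences of -0.39, -0.99 and -0.16.

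Gsta4 of the alpha class, which conjugates the lipid peroxidation product 4-hydroxynonenal, fell on MCD without drug. Before PH, Gsta4 read 2.33, 1.59, 2.62 and 2.64 in C and 1.28, 1.33, 0.73 and 1.46 in MCD. After PH, Gsta4 read 2.58, 1.37, 2.01 and 2.16 in C and -0.01, 0.12, 1.34 and 1.23 in MCD. Neither pair overlapped (2.13-fold, log2 difference -1.09 ± 0.30 (SE), adjusted p = 0.00771, and 2.56-fold, log2 difference -1.36 ± 0.30 (SE), adjusted p = 0.00297). The Gsta4 call before PH was lost under median centring (adjusted p = 0.102). Gsta4 had a log2 difference before PH of -0.73 with median centring. The Gsta4 call after PH was lost under a fit on the compared arrays alone (adjusted p = 0.0627). With Fc-GLP-1, Gsta4 read 1.70, 2.13, 1.92 and 2.07 in C+Fc-GLP-1 and 1.40, 1.15, 0.95 and 1.65 in M+Fc-GLP-1. After PH, Gsta4 with Fc-GLP-1 read 1.15, 1.23, 1.84 and 1.81 in C+Fc-GLP-1 and 1.57, 1.55, 1.28 and 1.21 in M+Fc-GLP-1. With drug the groups were apart before and overlapped after PH, and the log2 difference was -0.67 ± 0.30 (SE) (adjusted p = 0.158) before and -0.11 ± 0.30 (SE) (adjusted p = 0.877) after PH.

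Gstm2 of the mu class was the 1 cytosolic transferase that rose on MCD before PH without drug. Before PH, Gstm2 read 5.68, 5.70, 5.73 and 5.36 in C and 7.86, 6.90, 6.80 and 6.68 in MCD. Each MCD array was above each C array (2.72-fold, log2 difference 1.44 ± 0.26 (SE), adjusted p = 0.000169), and the call was kept under every alternative and with each array left out. With Fc-GLP-1, Gstm2 read 5.83, 6.11, 5.76 and 6.27 in C+Fc-GLP-1 and 6.40, 6.13, 5.91 and 6.05 in M+Fc-GLP-1. With drug the pair overlapped (log2 difference 0.13 ± 0.26 (SE), adjusted p = 0.809), and the change of the diet difference was -1.32 ± 0.36 (SE) (adjusted p = 0.0321). The Gstm2 call of the interaction was lost without C replicate 4, MCD replicate 1, C+Fc-GLP-1 replicates 2 or 4 or M+Fc-GLP-1 replicates 3 or 4 (adjusted p = 0.0513 to 0.0808) and under normexp with quantile normalization, the authors' log2 values or no dim-probe filter (adjusted p = 0.0539 to 0.0637). After PH, Gstm2 read 7.15, 6.48, 5.82 and 6.53 in C and 7.08, 7.10, 6.88 and 6.72 in MCD. After PH, Gstm2 with Fc-GLP-1 read 5.67, 5.99, 6.61 and 6.37 in C+Fc-GLP-1 and 6.12, 5.78, 6.19 and 5.71 in M+Fc-GLP-1. After PH both pairs overlapped (log2 difference 0.45 ± 0.26 (SE), adjusted p = 0.283 without and log2 difference -0.21 ± 0.26 (SE), adjusted p = 0.679 with drug). Other Gstm2 probes gave 1.16 and 1.96 for MCD against C before PH.

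Gstm4 fell on MCD with drug before PH. Before PH, Gstm4 read 5.84, 4.67, 5.50 and 5.38 in C and 5.06, 4.80, 4.41 and 4.4 in MCD. With Fc-GLP-1, Gstm4 read 4.83, 5.89, 5.69 and 5.07 in C+Fc-GLP-1 and 3.71, 4.83, 4.36 and 3.60 in M+Fc-GLP-1. Both pairs overlapped (log2 difference -0.68 ± 0.31 (SE), adjusted p = 0.0989 without and log2 difference -1.25 ± 0.31 (SE), adjusted p = 0.00801 with drug). The difference without drug was called with the mean over probes (adjusted p = 0.03). The Gstm4 call with drug was lost under a fit on the compared arrays alone (adjusted p = 0.0648). After PH, Gstm4 read 5.13, 4.81, 4.82 and 4.88 in C and 3.66, 4.09, 4.75 and 4.41 in MCD. After PH, Gstm4 with Fc-GLP-1 read 4.94, 5.03, 4.71 and 5.42 in C+Fc-GLP-1 and 4.73, 4.74, 3.91 and 5.09 in M+Fc-GLP-1. After PH the untreated pair was apart and the treated pair overlapped, with log2 differences of -0.68 ± 0.31 (SE) and -0.41 ± 0.31 (SE), neither past the threshold. Gstm5 rose on MCD after PH without drug (log2 difference 0.90 ± 0.29 (SE), adjusted p = 0.0386), across slides. The Gstm5 call was lost without C replicates 1, 2, 3 or 4 or MCD replicates 1, 2 or 4 (adjusted p = 0.0626 to 0.0958) and under the authors' log2 values or no dim-probe filter (adjusted p = 0.0509 to 0.0791). Gsta2, Gsta3, Gstm1 and Gstm3 were not called for diet with these settings, with log2 differences from -0.94 to 0.88. The Gstm1 probe used here is placed by the file on chromosome 5 and gave -0.47 for MCD against C before PH, while a second probe on chromosome 3 gave -1.32. The microsomal transferases Mgst1 and Mgst3 gave diet differences from -0.59 to 0.85, none called with the settings used throughout. Mgst3 was called higher in MCD than in C before PH under normexp with quantile normalization, median centring and the authors' log2 values (adjusted p = 0.00744, 0.0285 and 0.00837).

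Fc-GLP-1 was compared with no drug within each diet, always across slides. In chow livers 1 of 38 genes was called before PH (2.63%), against 2.11% of all genes, and none after PH, against 2.06%. At an unadjusted p under 0.05 from limma, 8 genes passed in chow livers after PH, and none was called there by the other settings. The 1 call was Gsta2, an alpha class transferase, which was lower with drug (log2 difference -2.04 ± 0.55 (SE), adjusted p = 0.0478). Its C arrays ran from 3.40 to 4.87 and its C+Fc-GLP-1 arrays from 0.98 to 3.61, with overlap. The Gsta2 call was lost without C replicates 1, 2, 3 or 4 or C+Fc-GLP-1 replicates 2, 3 or 4 (adjusted p = 0.0519 to 0.141) and under median centring, no dim-probe filter, a fit on the compared arrays alone or the replicate block (adjusted p = 0.0585 to 0.122). With median centring Mt1 and Nfe2l2 were called higher, as were 933 of all 21073 genes. With normexp and quantile normalization or the authors' normalized values 6 genes were called, 1 higher and 5 lower. Nfe2l2 was the higher one, and Gsta2, Gclm, Gss, Gstp1 and Gstt2 were lower with drug. Of all genes, normexp called 2464 and the authors' values 2108. In MCD livers 4 of 38 were called before PH, all lower with drug, against 7.22% of all genes, and 2 of 38 after PH, against 6.5%. The 4 were Txnrd1 (-0.90 ± 0.28 (SE)), Prdx1 (-1.03 ± 0.32 (SE)), Gpx7 (-1.93 ± 0.43 (SE)) and Gstm2 (-0.94 ± 0.26 (SE)), with adjusted p = 0.0477, 0.0486, 0.00865 and 0.0266. The Txnrd1 call with drug was lost without MCD replicates 1, 2, 3 or 4 or M+Fc-GLP-1 replicates 1, 3 or 4 (adjusted p = 0.07 to 0.175) and under a fit on the compared arrays alone (adjusted p = 0.0931). Txnrd1 had a log2 difference with drug of -1.46 with normexp with quantile normalization and -1.46 with the authors' log2 values. The Prdx1 call with drug was lost without MCD replicates 1, 2 or 4 or M+Fc-GLP-1 replicates 1, 2 or 3 (adjusted p = 0.0699 to 0.21) and under normexp with quantile normalization, the authors' log2 values, the mean over probes or a fit on the compared arrays alone (adjusted p = 0.166 to 0.567). Prdx1 had a log2 difference of -0.61 under normexp, -0.63 with the authors' values, -0.25 with the mean over probes and -0.67 without M+Fc-GLP-1 replicate 3. The Gstm2 call with drug before PH was lost without MCD replicate 1 or M+Fc-GLP-1 replicates 3 or 4 (adjusted p = 0.0561 to 0.133) and under a fit on the compared arrays alone (adjusted p = 0.0754). Gstm2 had a log2 difference with drug before PH of -1.49 with normexp with quantile normalization and -1.52 with the authors' log2 values. Gpx7 had a log2 difference with drug of -1.12 with normexp with quantile normalization and -1.0 with the authors' log2 values. After PH Gstm2 was lower with drug (log2 difference -1.0 ± 0.26 (SE), adjusted p = 0.0194) and Mgst3 higher (log2 difference 1.56 ± 0.35 (SE), adjusted p = 0.00779). The Gstm2 call after PH was lost without MCD replicates 1 or 2 or M+Fc-GLP-1 replicates 2 or 4 (adjusted p = 0.0516 to 0.0606). The Mgst3 call was kept under every alternative and with each array left out.

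The interaction of diet and drug before PH cancels any additive difference between slides. It was called for 5 of 38 genes (13.2%), against 6.15% of all genes: Nfe2l2, Txnrd1, Gpx7 and Gstm2 had a lower diet difference with drug, and Gstt2 a higher one. With median centring 7 genes were called, all negative, and Gstt2 was lost. Of all genes, 2564 were called with that scaling, 2415 of them negative. With no filter on dim probes none of the 5 was called. The median log2 interaction was -0.03 over the 38 and 0.15 over all genes. Leaving out 1 array at a time gave 1 to 5 calls, and each of the 5 genes lost its call without some of the arrays named above. For Nfe2l2 the drug difference was 0.86 ± 0.26 (SE) on chow and -0.45 ± 0.26 (SE) on MCD, so both parts entered the term.

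**Figure D4:**
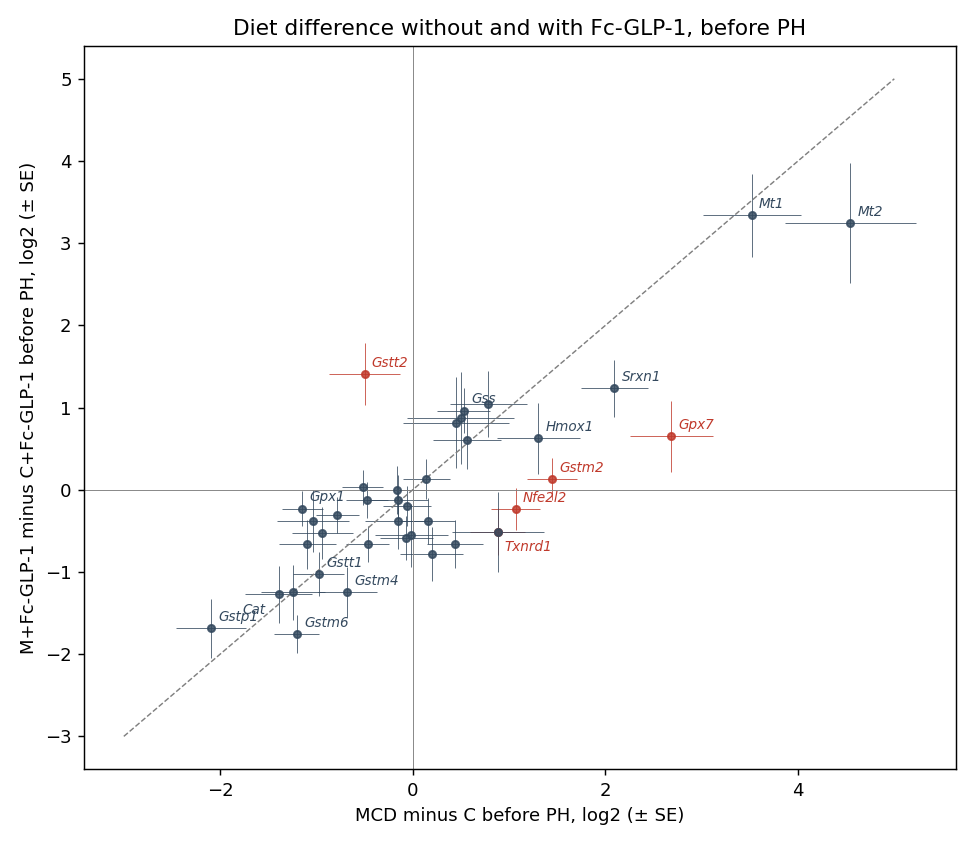
The diet difference (log2, ± SE) of 38 tested genes and Mt2 before PH, without Fc-GLP-1 on the horizontal and with Fc-GLP-1 on the vertical axis, with the line of equal differences dashed and the 5 genes whose difference changed with drug in red. Nfe2l2, Txnrd1, Gstm2 and Gpx7 lie below the line, Gstt2 above it, and Mt1, Cat and Gstp1 near it.

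**Figure D5:**
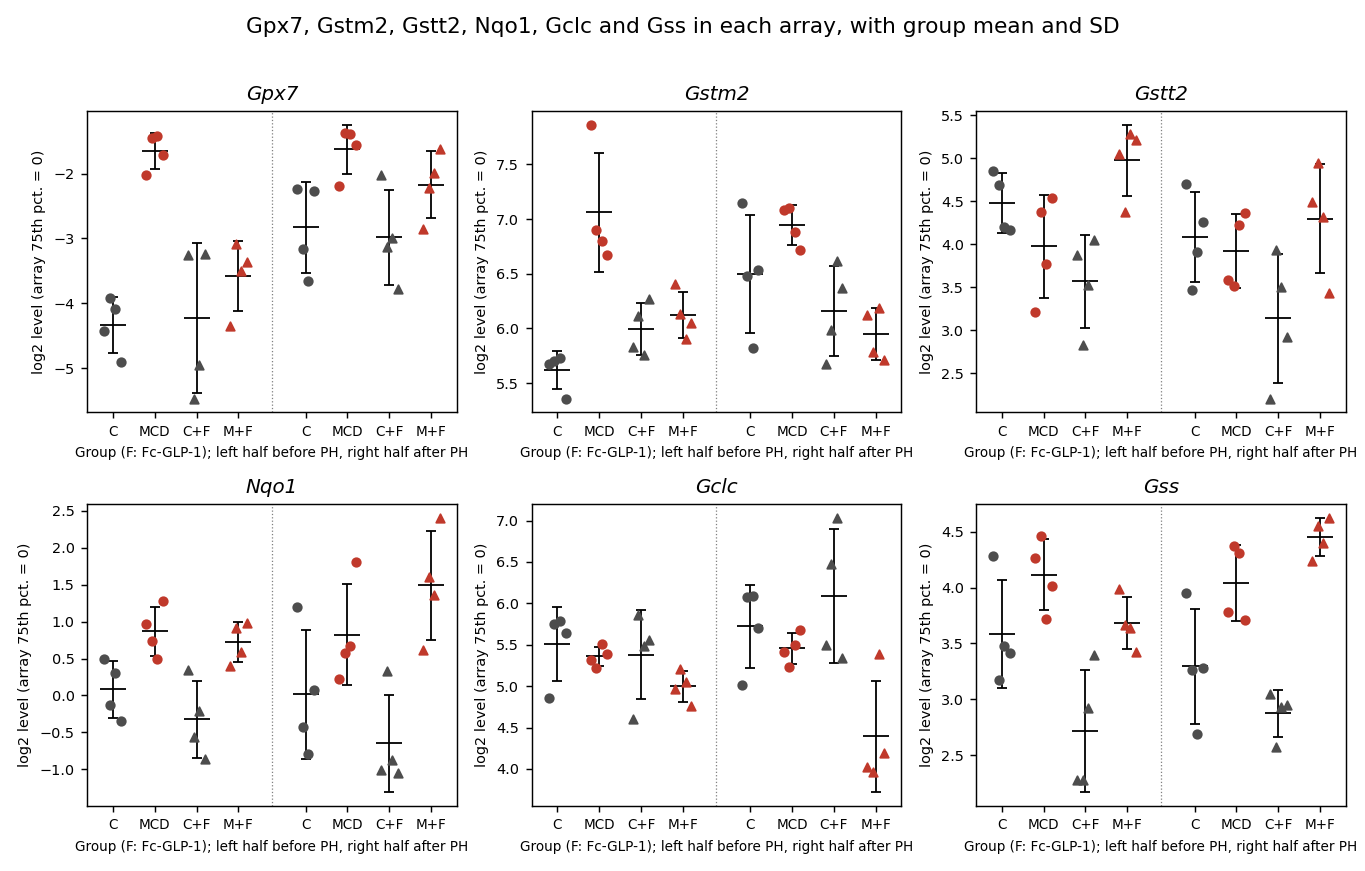
Levels (log2, array 75th percentile at 0) of Gpx7, Gstm2, Gstt2, Nqo1, Gclc and Gss in every array of the 8 groups, chow in grey and MCD in red, triangles for Fc-GLP-1, bars for mean ± SD (n = 4). Gpx7 and Gstm2 show a raised MCD group before PH without drug, and Nqo1, Gclc and Gss show their widest diet gap in the treated pair after PH.

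Time was tested within the treated groups, across slides. None of the 38 genes was called in C+Fc-GLP-1 after against before PH (0.835% of all genes), in M+Fc-GLP-1 (1.71%) or in the interaction of diet and time under drug (0.0949%). At an unadjusted p under 0.05 from limma, 7, 8 and 1 of the 38 passed in the 3 tests in that order, the 1 being Gclc. With normexp and quantile normalization, time was called as a rise for Gclc and Srxn1 in the C+Fc-GLP-1 group, and for Gss and Gstm6 in the M+Fc-GLP-1 group. That setting called 1296 and 623 of all genes in these groups, 381 and 276 of them as a rise.

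Of 54 other genes of the same pathways, 52 were tested. On MCD before PH without drug 8 rose and 6 fell (26.9%), with drug 5 rose and 3 fell (15.4%), after PH with drug 3 rose and 3 fell (11.5%) and after PH without drug 6 rose and 3 fell (17.3%). The shares of all genes in the same order were 26.4, 10.4, 12.8 and 12.1%. Abcc4, an efflux pump for organic anions, rose in all 4, by 3.03, 1.75, 3.15 and 1.57 on the log2 scale in that order. Aox1, aldehyde oxidase, fell in all 4, with log2 differences of -1.99, -1.31, -2.06 and -2.20. Cbr3, a carbonyl reductase, rose before PH without (2.46) and with drug (1.87), as did Maff, a small partner of NRF2 (1.31 and 1.70). Mitochondrial Prdx3 rose without drug before (0.89) and after PH (0.60) and with drug after PH (0.67). Ggct, which cleaves gamma-glutamyl amino acids, rose before PH without drug (1.59) and its diet difference changed with drug by -1.45.

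Markers of other cells moved in some of the same comparisons. Of 8 macrophage and Kupffer cell markers, 7 were higher in MCD than in C before PH, where their mean level ran from 3.28 to 4.69 over the MCD arrays and from 1.60 to 2.57 over the C arrays. With drug it ran from 1.94 to 3.30 in M+Fc-GLP-1 and from 2.41 to 3.18 in C+Fc-GLP-1, with 1 of 8 called, lower. In M+Fc-GLP-1 against MCD before PH 4 of the 8 were lower. Nfe2l2, Txnrd1, Gpx7, Gstm2 and Hmox1 were high in the same MCD group, and the part of these cells in their levels was not tested. In the treated pair after PH 1 macrophage marker was lower, and in M+Fc-GLP-1 against MCD after PH 1, Adgre1, was lower. Of 5 neutrophil markers, 2, S100a8 and S100a9, were higher in MCD than in C before PH and 3, with Retnlg, after PH. The mean of the 5 ran from 2.82 to 3.98 in MCD after PH and from 1.04 to 2.27 in C. With drug, S100a8 and S100a9 were lower and Ly6g was higher in MCD livers before PH. After PH, S100a8, S100a9 and Retnlg were lower with drug in MCD livers, while no neutrophil marker was called in either treated pair. Mt1 and Mt2 were high in MCD both with and without drug, and the part of these cells in their levels was not tested. Of 5 tested stellate cell and fibroblast markers, 2 rose on MCD before PH, and Col3a1 was lower on MCD with drug before PH and without drug after PH and lower with drug in MCD livers before PH. Of 5 lymphocyte and plasma cell markers Jchain was higher and Cd3e and Cd79a lower in MCD than in C before PH, and Jchain was lower with drug in MCD livers at both times. Of 6 hepatocyte markers 1 fell on MCD before PH, and their mean level ran from 8.44 to 8.71 against 8.70 to 9.13 in C. Of 2 tested red cell markers, Alas2 was lower on MCD in the 3 comparisons within a slide. Of 4 endothelial markers, Stab2 was higher on MCD before PH with and without drug, and Clec4g lower after PH with drug. No cholangiocyte and progenitor marker was called for diet. Cat, Gstm6, Gstp1 and Gstt1 fell in the same 3 comparisons as Alas2, and the part of any cell type in their levels was not tested.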

How the data were processed

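Total liver RNA was hybridised to 32 one-colour mouse arrays, and per the file headers Feature Extraction 10.7.3.1 made the deposited processed signals (intensity, background-subtracted by the scanner software). The authors also deposited normalized log2 values, used as an alternative, and their processing notes name limma. Here, each array's log2 intensity was centred on the 75th percentile of its 59305 non-control spots. Probes with an outlier mark on any array were left out (426), as were those well above background on all 4 arrays of no group, which kept 28937 probes. The brightest kept probe stood for a gene, chosen by its mean over all arrays. Differences over 21073 genes were fitted with limma 3.58.1 in R 4.3.3 on all 8 groups (24 residual degrees of freedom), with Benjamini-Hochberg adjustment at 0.05. Mt2 was fitted with its marked spot as a missing value, an alternative chosen after seeing the data, as was centring over probes. The other alternatives were normexp with quantile normalization, median centring, no filter, the mean over probes, a fit on the compared arrays alone, the replicate number as a block and leaving out each array. The genes given with values in every array were Nfe2l2, Keap1, Nqo1, Hmox1, Gclc, Gclm, Txnrd1, Srxn1, both metallothioneins and every listed gene called in a diet comparison within a slide or in an interaction. The script was tested on simulated data. Replicate numbers were not taken as pairs, since in no comparison did every same-numbered pair of deviations correlate over 0.1. That limit cannot exclude a weaker pairing. In C+Fc-GLP-1 against C after PH same-numbered pairs had a mean correlation of 0.18, and pairs of other numbers -0.06. The 40 genes, the lists of other genes of the pathways and the markers were drawn up by name with earlier results of these data known, and no measured value entered the rule for them. The p-values set differences between group means against the spread of arrays within groups, estimated over all 8 groups in the main fit. They do not cover differences between slides.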

Additional observations from a re-analysis of the deposited data

Results flagged for a closer look

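One array stood far from the other 3 of its group in 8 of 199 groups of 4 tested, where chance gives about 1 in 20. Nqo1 read 0.33 in C+Fc-GLP-1 replicate 2 after PH, with the other arrays between -1.05 and -0.87. Gclc read 4.85 in C replicate 1 before PH (others 5.65 to 5.79) and 5.39 in M+Fc-GLP-1 replicate 3 after PH (others 3.96 to 4.20). Its modifier subunit Gclm read 1.87 in C replicate 2 before PH (others 2.58 to 2.67) and 2.08 in M+Fc-GLP-1 replicate 2 before PH (others 0.75 to 0.94). Srxn1 read 6.35 in MCD replicate 2 before PH (others 5.39 to 5.46). Gstm2 read 5.36 in C replicate 4 before PH (others 5.68 to 5.73). Gstm6 read 5.49 in MCD replicate 3 before PH (others 4.97 to 5.04).

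The diet difference before PH changed with Fc-GLP-1 for 5 genes by the limma interaction term. It was lower with drug for Nfe2l2 by -1.31 on the log2 scale (adjusted p = 0.0319) and for Txnrd1 by -1.39 (adjusted p = 0.037). It was also lower for Gpx7 by -2.03 (adjusted p = 0.046) and for Gstm2 by -1.32 (adjusted p = 0.0321). For Gstt2 it was higher, by 1.91 (adjusted p = 0.0319). Each of these calls was lost without some of the arrays, and none was kept with no filter on dim probes. The Gpx7 term includes groups mostly not well above background.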

How the results depend on the processing

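Of 58 calls of the genes given in every array, 26 were kept under every setting, 30 with each array left out and 21 under both, and no direction was reversed. A fit on the compared arrays alone called 4 genes for diet with drug before PH, 6 with drug after PH and 5 without drug after PH. It called 3 for the interaction of diet and drug, and 0 for drug in chow livers before PH. Of all genes it called 1370, 1936, 1611, 1246 and 48 in that order. For drug in chow livers before PH, normexp with quantile normalization and the authors' values each called 6, median centring 2 and no filter 0. These settings called 2464, 2108, 1039 and 534 of all genes in that order. For drug in MCD livers before PH normexp, the authors' values and median centring each called 8, and 2624, 2128 and 1537 of all genes. The interaction gave 3 with normexp and with the authors' values and 0 with no filter, where 531, 337 and 948 of all genes were called. After PH the authors' values called 4 for drug in MCD livers, and 1382 of all genes. Normexp called 2 after against before PH in each treated group, and 1296 and 623 of all genes. Median centring moved the median log2 difference of all genes from -0.13 to 0.24 for MCD against C before PH, from 0.04 to -0.22 for the treated pair and from 0.15 to -0.47 for the interaction.

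With 1 array left out, the calls ran from 14 to 16 for MCD against C before PH, 7 to 10 and 6 to 10 for the treated pair before and after PH, 4 to 12 for MCD against C after PH, 0 to 1 and 1 to 5 for drug in chow and MCD livers before PH, 1 to 5 for the interaction, 1 to 3 for drug in MCD livers after PH and 0 to 1 for M+Fc-GLP-1 after against before PH. The treated pair after PH had 7 calls without C+Fc-GLP-1 replicate 2 and 6 without M+Fc-GLP-1 replicate 3. MCD against C after PH had 4 without C replicate 2 or 3 or MCD replicate 2. Drug in MCD livers before PH had 1 without MCD replicate 1 or M+Fc-GLP-1 replicate 3. Calls over all genes were not counted with 1 array left out, so these counts have no background beside them.

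The replicate numbers were not taken as pairs. With the number as a block 16, 10, 10 and 8 genes were called in the diet comparisons in the order of the report. Of all 21073 genes, 5641, 2236, 2720 and 2582 were called there. For drug in chow and MCD livers before PH 0 and 4 were called, and 4 for the interaction. Of all genes, 410, 1534 and 1265 were called in that order. Gstt3, Gstt2, Gsta2 and Gpx7 each lost a call. Slide as a random block could not be fitted, because every group lay on 1 slide. The number of arrays limits the precision, and Ggt1, and Gpx7 before PH outside the MCD group, were mostly not well above background.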
